A study of Mus musculus with 4 samples.

Results

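The 9 genes described here serve glutamate packaging and the turnover of glutamate and glutamine, and they were read in RNA pulled down from tagged neurons of the deep cerebellar nuclei, through which the cerebellum sends its output. They were taken by exact symbol, 9 of the 32531 gene names in the count files, and were chosen for the transmitter identity of the tagged neurons. They are the vesicular glutamate transporters Slc17a6, Slc17a7 and Slc17a8, the glutaminase Gls2, the glutamine synthetase Glul, the glutamate dehydrogenase Glud1, the aspartate aminotransferases Got1 and Got2 and the amino acid transporter Slc38a1. All 9 symbols were found, and 8 of the 9 had at least 1 CPM (counts per 1000000 counts of named genes) in every library. Of the 32531 gene names, 11302 had at least 10 counts in every library, which is close to 1 CPM at this depth. Counts of list genes at 1 CPM further on stand beside the same number.

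The libraries came from adult, untreated transgenic mice of the line Slc17a6-TRAP JX883, whose transgene is written Slc17a6-EGFP/Rpl10a. In translating ribosome affinity purification (TRAP), a ribosomal protein fused to EGFP is made in chosen cells, and antibodies against EGFP pull down the ribosomes of those cells with their RNA. There was 1 group of 4 immunopurified libraries, each from 3 mice. The labels name Slc17a6 as the gene behind the line. How the mice were shared out over the libraries is not stated in the labels, so the spread between libraries may be partly technical. No input RNA, second line or treatment was used here, and no value here measures enrichment. The results are levels, ratios between genes of a library, and contrasts of each library with the remaining 3. The titles carry the numbers 1300, 1301 and 1302 for replicates 1 to 3 and 1476 for replicate 4, and the labels do not say what these mean. In such bulk RNA, fewer cells of a type and less RNA per cell cannot be told apart.

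An excitatory terminal fills its vesicles with glutamate through a vesicular glutamate transporter and releases it. Astrocytes take much of that glutamate up and turn it into glutamine by glutamine synthetase, and neurons take glutamine in and turn it back into glutamate by glutaminase. Aspartate aminotransferases and glutamate dehydrogenase link glutamate to the citric acid cycle, and the aminotransferases also serve the malate-aspartate shuttle, which carries reducing equivalents into mitochondria. In the cerebellum, Slc17a7 is the transporter of granule cells, and Slc17a6 that of the large projection neurons of the nuclei.

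Gene counts per library ranged from 9621762 to 10988373. No library was a copy of another: chi-square divided by its degrees of freedom was 34.9 to 127 over the pairs. The ribosomal RNA precursor Rn45s took from 4.92 to 14.2% of counts. It was the higher in replicates 2 and 3, and this lowers the CPM of every other gene there. Of 8 markers of glutamatergic nuclear neurons other than Slc17a6, 7 reached 1 CPM in every library. They were led per length by Spp1, Meis2 and Lhx9, and their summed level ran from 485 to 767 CPM. Markers of other cells were present too. Summed levels ran from 1373 to 3719 CPM for 7 Purkinje cell markers, led per length by Aldoc, Car8 and Rgs8. Itpr1 and Rgs8 gave 886 and 607 of the mean sum of 2154 CPM. Pcp2 (0.910 to 13.0 CPM), Ppp1r17 (6.46 to 42.7) and Calb1 (30.5 to 59.0) were far lower. For 6 unipolar brush cell markers (among them Plcb4 and Calb2) sums ran from 611 to 888 CPM. Plcb4 gave 453 of their mean sum of 746 CPM, whereas Eomes (4.05 to 9.74 CPM) and Lmx1a (4.73 to 10.8) were low. Sums ran from 279.7 to 577 CPM for 5 inhibitory neuron markers (among them Gad2 and Gad1). The sums were low for 6 markers of endothelium and pericytes, at 12.9 to 49.8 CPM (led per length by Rgs5, Flt1 and Pecam1). They were low too for 6 of microglia, at 4.16 to 14.3 CPM (led per length by C1qb, P2ry12 and Csf1r). C1qa had no count in any library.

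Slc17a6 encodes VGLUT2, the vesicular transporter for which the line is named. In mm10, with the exons of GENCODE release M21 as for all positions here, it spans 51622006 to 51671119 of chromosome 7 (plus strand). Its level was 2237, 2011, 2014 and 2309 CPM in replicates 1 to 4. The 4 libraries lay within a factor of 1.15 of each other, the narrowest range of the 9 genes. For comparisons between genes, CPM was divided by the length in kilobases of the union of annotated exons, which gives RPKM. On that scale Slc17a6 stood at 397 ± 28.4 RPKM (SD, n = 4), and it ranked between 33 and 41 among the 23927 gene names with a length.

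Slc17a7 encodes VGLUT1 and lies on the same chromosome, at 45163949 to 45176142. Its level was 79.2, 41.2, 53.5 and 22.1 CPM in replicates 1 to 4. Replicate 1 was high and replicate 4 low, 3.58 times apart. Slc17a8 encodes VGLUT3, which other parts of the brain use in neurons that often release a second transmitter (chromosome 10, 89574020 to 89621253, minus strand). It had 4, 29, 0 and 24 counts in replicates 1 to 4, or 0.416, 2.81, 0 and 2.18 CPM. The absence of counts in replicate 3 allows a level of up to 0.287 CPM, the level of 3 counts, and this limit covers counting error only. Per exon length, Slc17a7 stood at 9.09 ± 4.43 and Slc17a8 at 0.287 ± 0.288 RPKM (SD, n = 4). By its longest transcript in place of the exon union, Slc17a7 stood at 15.9 ± 7.76 RPKM.

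Of the summed RPKM of the 3 transporters, Slc17a6 made up 96.6, 97.8, 97.4 and 98.9% in replicates 1 to 4. Slc17a7 held 3.42, 2.01, 2.59 and 0.949%, and Slc17a8 no more than 0.157%. VGLUT2 messages made up nearly the whole vesicular glutamate transporter signal in each library. The labels name Slc17a6 as the gene behind the line, so its high share may follow from the choice of cells. The share is no test of their transmitter identity. The inhibitory counterpart Slc32a1, which loads GABA and glycine, stood at 4.45 ± 4.43 RPKM, with 5.51, 13.8, 29.3 and 1.18 CPM in replicates 1 to 4. Among the other SLC17 genes, the lysosomal sialic acid carrier Slc17a5 stood at 5.71 ± 2.47 RPKM and the vesicular nucleotide transporter Slc17a9 at 0.0147 ± 0.0170 RPKM. Slc17a1, Slc17a2, Slc17a3 and Slc17a4 had no count in any library.

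The stretches of 250 bases before the first annotated start of these 3 transporters are shown because the transporters differ most in level within 1 gene family. They are taken from RefSeq on GRCm38.p6, the assembly of mm10, read 5′ to 3′ on the gene's strand, with each CG in capitals. The windows are chr7:51621580-51621829 for Slc17a6, chr7:45163671-45163920 for Slc17a7 (both on the plus strand) and chr10:89621250-89621499 for Slc17a8 (minus strand).
Slc17a6: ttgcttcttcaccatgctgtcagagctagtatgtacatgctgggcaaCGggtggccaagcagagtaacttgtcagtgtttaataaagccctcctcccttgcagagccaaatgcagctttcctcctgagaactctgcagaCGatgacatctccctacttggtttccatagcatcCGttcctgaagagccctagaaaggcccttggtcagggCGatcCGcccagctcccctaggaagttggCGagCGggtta
Slc17a7: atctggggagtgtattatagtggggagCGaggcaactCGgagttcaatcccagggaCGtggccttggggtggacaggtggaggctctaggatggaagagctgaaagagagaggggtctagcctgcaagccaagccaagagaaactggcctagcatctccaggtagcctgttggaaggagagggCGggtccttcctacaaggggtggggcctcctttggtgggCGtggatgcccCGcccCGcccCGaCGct
Slc17a8: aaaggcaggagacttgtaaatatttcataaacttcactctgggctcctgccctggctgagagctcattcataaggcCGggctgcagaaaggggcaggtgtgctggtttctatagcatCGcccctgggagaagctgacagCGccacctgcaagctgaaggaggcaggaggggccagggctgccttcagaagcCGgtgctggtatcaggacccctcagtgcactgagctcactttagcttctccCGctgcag
CG, which reads the same on both strands, occurred 7, 9 and 5 times in the windows of Slc17a6, Slc17a7 and Slc17a8. Over 32841 windows of the same length the median was 6, and 46.3, 40.3 and 55.6% of windows held at least as many as each of the 3. The abundant Slc17a6 thus lay between its scarce relatives in CG number. The motif TATAAA, searched on both strands, was in none of these 3 windows and in 12.4% of all windows. Of the 9 genes, 7 had such windows in the table, the 2 others being Gls2 and Slc38a1. CG number in the other 4 was 15 for Glul, 46 for Glud1, 11 for Got1 and 19 for Got2, and only 0.323% of all windows held as many as that of Glud1.

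**Figure D1:**
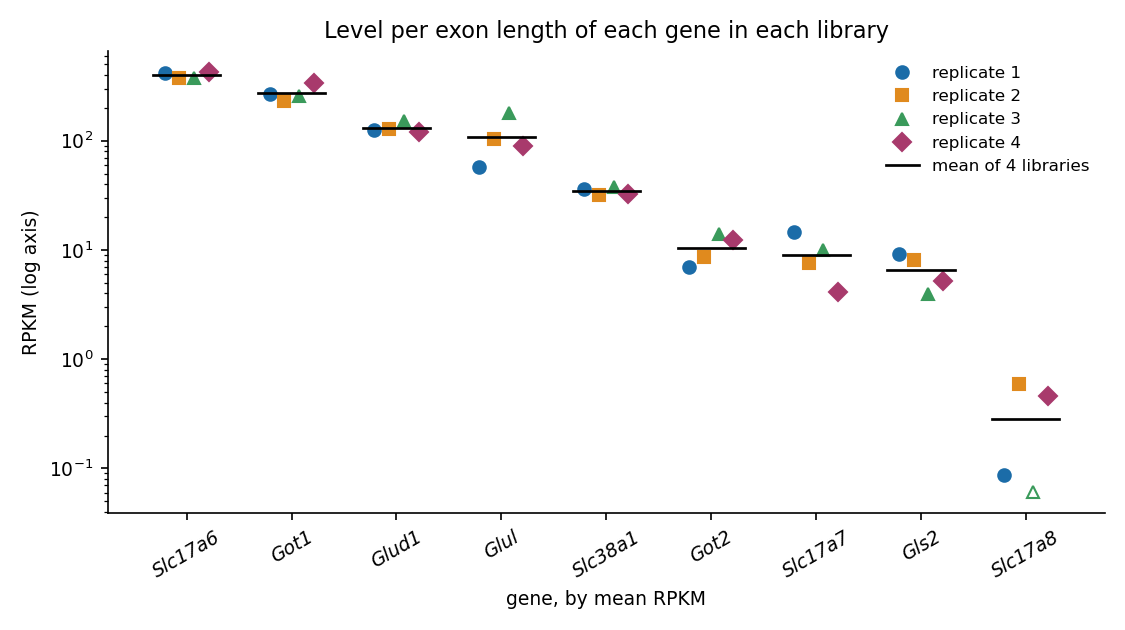
Level per union exon length (RPKM, log axis) of the 9 genes in each of the 4 libraries, ordered by mean, with bars at the mean. The open symbol marks Slc17a8 in replicate 3, which had 0 counts and is drawn at the level of 3 counts. Slc17a6 lies at 372 to 428 RPKM, above the other 8 genes in every library.

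The other 8 genes were set against Slc17a6 within each library, to ask where the turnover enzymes and transporters stood beside the transporter of the tagged neurons. The test was limma's moderated test of the log2 ratio per exon length (0.5 counts added to each count), fitted over 14679 genes with at least 10 counts in all. All 8 genes lay below Slc17a6 (adjusted p under 0.05), as did 99.7% of all genes tested, so a place below Slc17a6 sets these genes apart from few others. None of the 8 lay above it, and 0.17% of all genes did. The high place of Slc17a6 may follow from its being the gene behind the line. The median log2 ratio was -4.41 over the 8 genes and -6.93 over all genes. The noise of Slc17a6 enters every ratio of this fit, so the variances are not independent between genes and the p-values are too small. With 4 libraries, the smallest p of an exact test that flips signs is 0.125.

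Got1 came nearest, with a log2 ratio to Slc17a6 of -0.55 ± 0.16 (SD, n = 4; limma, adjusted p = 0.00137). The ratio ran from -0.70 to -0.33, so Got1 was below Slc17a6 in 4 of 4 libraries. Glud1 followed at -1.60 ± 0.23, Glul at -2.00 ± 0.75 and Slc38a1 at -3.53 ± 0.16. Got2 lay at -5.29 ± 0.50, Slc17a7 at -5.59 ± 0.81, Gls2 at -5.99 ± 0.56 and Slc17a8 at -11.57 ± 2.68 (limma, adjusted p from 1.5e-10 to 6.9e-06 for these 7 genes). The value of Slc17a8 depends on the count added to its 0 in replicate 3. Among all genes tested, Got1, Glud1 and Glul were at or above 99.6, 99.0 and 98.4% of genes, whereas Gls2 was at or above 64.3% and Slc17a8 at or above 9.57%.

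**Figure D2:**
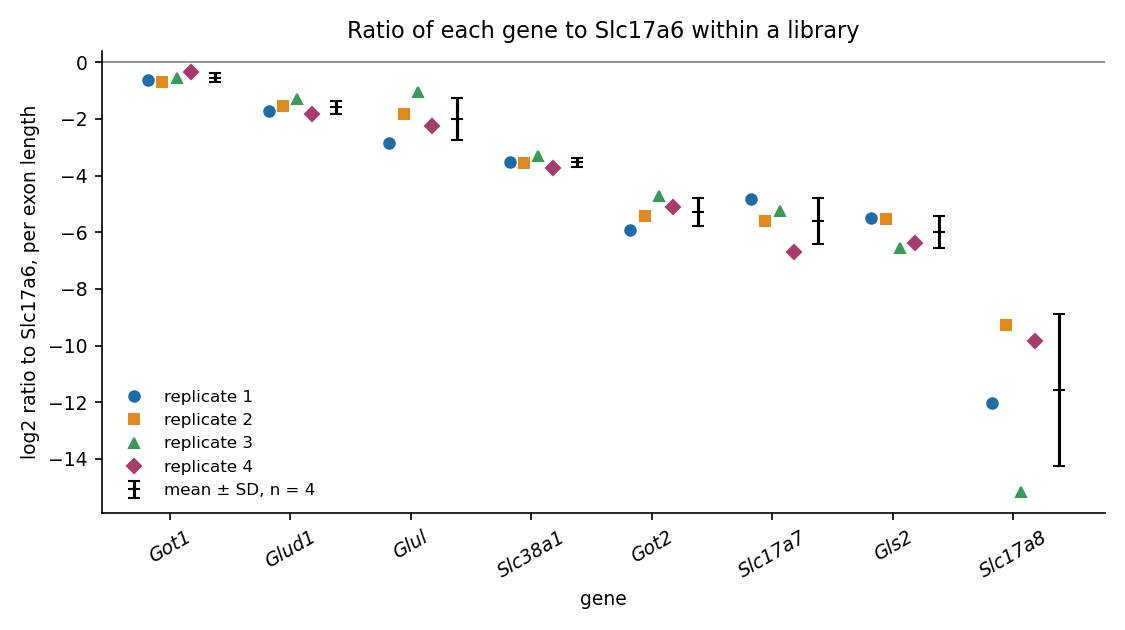
Log2 ratio of each gene to Slc17a6 within a library, per exon length, for the 4 libraries (symbols), with mean and SD beside them. All points lie below 0, and Got1 is nearest at -0.70 to -0.33.

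**Figure D3:**
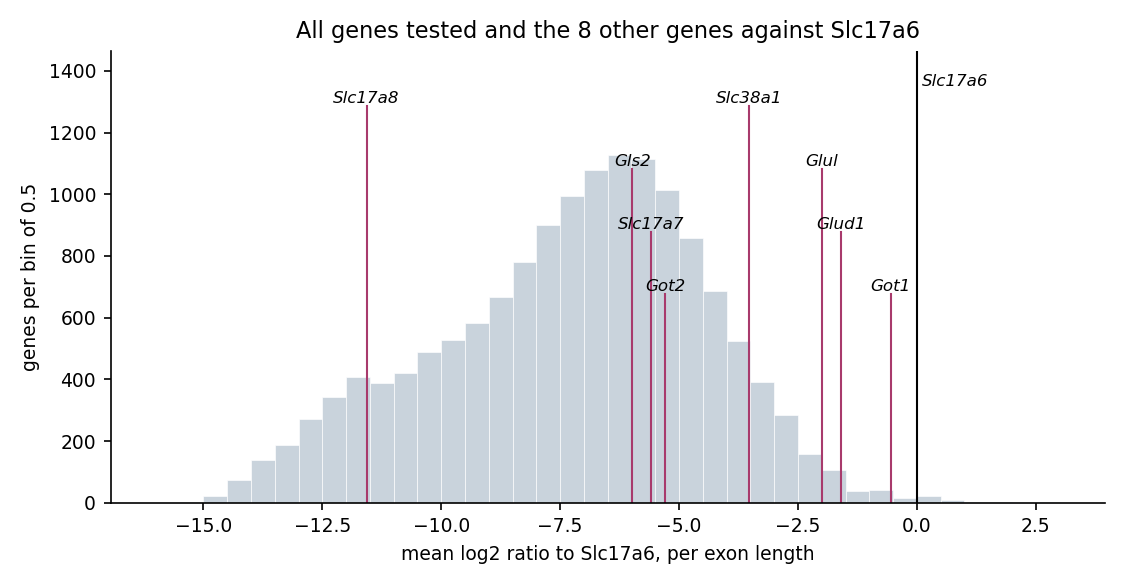
Number of genes per bin of 0.5 by mean log2 ratio to Slc17a6 per exon length, over 14679 genes. Lines mark the 8 other genes (their height carries no value), and Got1, Glud1 and Glul lie in the upper tail.

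Gls2 encodes the liver-type glutaminase (chromosome 10, 128194457 to 128210004, plus strand), and it stood at 32.2, 27.8, 13.6 and 18.0 CPM in replicates 1 to 4. Replicates 3 and 4 were the lower, and the highest was 2.37 times the lowest. Per exon length it stood at 6.60 ± 2.47 RPKM (SD, n = 4).

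Glul encodes glutamine synthetase, which in the brain is known from astrocytes and oligodendrocytes (chromosome 1, 153899944 to 153909723, plus strand). Its level was 191, 348, 594 and 300.3 CPM in replicates 1 to 4. Replicate 3 was the highest and replicate 1 the lowest, 3.11 times apart. Per exon length Glul stood at 108 ± 51.3 RPKM. The 9 other markers of astrocytes and Bergmann glia, led per length by S100b, Slc1a2 and Aqp4, summed to 382, 543, 834 and 506 CPM in replicates 1 to 4, lowest in replicate 1 and highest in replicate 3 as Glul was. Slc1a2 alone made up 319 of the mean sum of 566 CPM. Single markers were mixed: 7 of the 9 were highest in replicate 3, but 3 of the 9 were lowest in replicate 1, and 2 of them, Gfap and S100b, had the order of libraries of Glul. Of these 9 markers, 7 reached 1 CPM in every library. Slc1a2 and Slc1a3 also belong to the glutamate transporters described further on. Their levels differed widely, from 189.9 to 458 CPM for Slc1a2, 58.4 to 89.1 for S100b and 45.5 to 64.1 for Aqp4 to 10.9 to 20.7 for Gfap, 2.91 to 27.0 for Gja1 and 0.862 to 8.64 CPM for Aldh1l1. The 8 oligodendrocyte markers, among them Mbp and Cnp, summed to 476, 732, 1169.8 and 1005 CPM, again lowest in replicate 1 and highest in replicate 3. The pattern was not particular to glia. Sums of 8 granule cell markers (599.6 to 1432 CPM) and 5 inhibitory neuron markers (279.7 to 577 CPM) had the same lowest and highest libraries. The part of glial RNA in the level of Glul was not tested.

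Glud1 encodes glutamate dehydrogenase of the mitochondrial matrix, which converts glutamate to 2-oxoglutarate (chromosome 14, 34310727 to 34345265, plus strand). Its level was 531, 543, 634 and 508 CPM in replicates 1 to 4, with replicate 3 the highest and a range of 1.25 times. Per exon length it stood at 132 ± 13.1 RPKM.

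Got1 encodes the cytosolic aspartate aminotransferase (chromosome 19, 43499752 to 43524605, minus strand). It had 677, 583, 651 and 861 CPM in replicates 1 to 4, with replicate 4 the highest, and 273 ± 46.7 RPKM. Got2 encodes the mitochondrial form (chromosome 8, 95864134 to 95888547, minus strand). It had 33.4, 41.9, 68.1 and 59.2 CPM, higher in replicates 3 and 4 than in replicates 1 and 2, and 10.5 ± 3.29 RPKM by the exon union or 20.02 ± 6.27 RPKM by the longest transcript. Got1 exceeded Got2 in 4 of 4 libraries, by a log2 ratio of 4.74 ± 0.44 per exon length, from 4.18 to 5.27 (limma with Got1 as the reference, adjusted p = 5.3e-10, and 7.9e-04 with Got2 as the reference and 1 variance prior for all genes). Of all genes tested, 99.4% were lower than Got1. The counts of Got2 are the less certain, because 434 bases of its exons overlap Gm45760 on the opposite strand and a pseudogene, Got2-ps1, is annotated. Gls2 and Glul overlap opposite-strand exons of Spryd4 and Teddm2 over 97 and 116 bases. Glul also holds Mir8114 on its own strand.

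Slc38a1 encodes SNAT1, a sodium-coupled transporter that brings glutamine into neurons (chromosome 15, 96571418 to 96642913, minus strand). Its level was 625, 548, 645 and 560 CPM in replicates 1 to 4, a range of 1.18 times. Its exon union of 17236 bases is far longer than its longest transcript of 7266 bases. Its level therefore depends on the length used, at 34.5 ± 2.77 RPKM by the union and 81.8 ± 6.57 RPKM by the longest transcript. It exceeded its relative Slc38a2, another glutamine carrier at 19.9 ± 7.29 RPKM, in 4 of 4 libraries (log2 ratio Slc38a2/Slc38a1 of -0.89 ± 0.62 per exon length; limma, adjusted p = 0.00212, and 0.0385 with 1 variance prior for all genes). Of all genes tested, 89% were lower than Slc38a1.

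By mean RPKM the order was Slc17a6, Got1, Glud1, Glul, Slc38a1, Got2, Slc17a7, Gls2 and Slc17a8. Each gene was compared with the next in that order by the same fit, with the higher gene as the reference. That order came from the same 4 libraries, so the pairs and their direction were set by the values tested. Of the 8 neighbouring pairs, 5 passed. Those were Slc17a6 over Got1, given before, Got1 over Glud1 (log2 ratio 1.04 ± 0.33; limma, adjusted p = 2.4e-05), Glul over Slc38a1 (1.53 ± 0.66, adjusted p = 5.2e-04), Slc38a1 over Got2 (1.77 ± 0.47, adjusted p = 8.2e-06) and Gls2 over Slc17a8 (5.58 ± 2.45; limma, adjusted p = 3.1e-08). The higher gene led in 4 of 4 libraries in each of these 5. Glud1 and Glul did not differ beyond their spread (0.40 ± 0.57; limma, adjusted p = 0.0931), with Glud1 ahead in 3 of 4 libraries, but without replicate 3 the pair passed (0.62, adjusted p = 0.0209). Got2 and Slc17a7 (0.30 ± 1.10; limma, adjusted p = 0.476) and Slc17a7 and Gls2 (0.40 ± 0.76, adjusted p = 0.426) did not pass either. Ratios of these pairs ran from -1.09 to 1.58 and from -0.34 to 1.34 over the libraries. Of all genes tested, 98.3% were lower than Glud1, 95.9% than Glul, 60.8% than Got2, 54.9% than Slc17a7 and 49.8% than Gls2. By the longest transcript, Glul and Slc38a1 no longer differed beyond their spread (0.53, adjusted p = 0.228).

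Other genes of the pathway were read from lists fixed for this tissue. Of 5 plasma membrane glutamate transporters, 4 reached 1 CPM in every library. Slc1a2, the main astrocytic carrier, stood at 24.3 ± 8.41, the neuronal carrier Slc1a1 at 15.8 ± 2.26 and Slc1a3, known from Bergmann glia, at 7.96 ± 6.63 RPKM. Slc1a2 and Slc1a3 were highest in replicate 3, at 458 and 151 CPM, as was Glul. Of 15 transporters of glutamine and neutral amino acids, 9 reached 1 CPM in every library. Slc6a17, a synaptic vesicle carrier of neutral amino acids, led at 47.0 ± 6.14 RPKM, above Slc38a2 and Slc7a5 (12.3 ± 0.339 RPKM). Slc38a3, the glutamine exporter of astrocytes, stood at 0.677 ± 0.498 RPKM.

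Of 16 other enzymes of glutamate and glutamine, 10 reached 1 CPM in every library. Among them Bcat1, the cytosolic branched-chain aminotransferase, stood at 28.0 ± 2.95 RPKM and the asparagine synthetase Asns at 26.4 ± 5.74 RPKM. Bckdha had no count in any library. The annotation used for counting is not given, so genes without a count, here and above, need not lack RNA. Of 8 genes of the malate-aspartate shuttle and of mitochondrial glutamate carriers, 6 reached 1 CPM in every library. The cytosolic malate dehydrogenase Mdh1 stood at 333 ± 106, the mitochondrial Mdh2 at 80.4 ± 6.69 and the aspartate-glutamate carrier Slc25a12 at 42.6 ± 7.34 RPKM. Of the genes of the 5 lists that could be tested, all lay below Slc17a6 except Mdh1 (log2 ratio -0.30 ± 0.48; limma, adjusted p = 0.107). Among all genes tested, 99.7% lay below Slc17a6. The median log2 ratio to Slc17a6 was -4.27 over the 8 shuttle genes, -5.32 over 4 plasma membrane carriers, -6.35 over 15 enzymes and -7.22 over 13 amino acid transporters, beside -6.93 over all genes.

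Differences between libraries were tested by setting each against the other 3 with edgeR's quasi-likelihood test over 15083 genes. These 4 comparisons share all their libraries. No member of the 9 was called in any of them (Benjamini-Hochberg adjusted p under 0.05), beside 0.0199, 0, 0 and 0.0464% of all genes for replicates 1 to 4. DESeq2's Wald test also called 0 of the 9 in each, beside 0.183, 0.0267, 0.598 and 3.1% of all genes. At an unadjusted p under 0.05 edgeR gave 1, 0, 1 and 2 of the 9, beside 3.3, 0.517, 7.01 and 14.7% of all genes. Glul was the 1 gene for replicates 1 and 3, with log2 fold changes of -1.31 ± 0.47 (SE; adjusted p = 0.99966) and 1.10 ± 0.45 (edgeR, adjusted p = 0.643). In replicate 4 they were Slc17a7 at -1.22 ± 0.48 (adjusted p = 0.279) and Got1 at 0.59 ± 0.26 (edgeR, adjusted p = 0.331). For Slc17a6 the fold changes ran from -0.12 to 0.30 over the 4 comparisons.

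**Figure D4:**
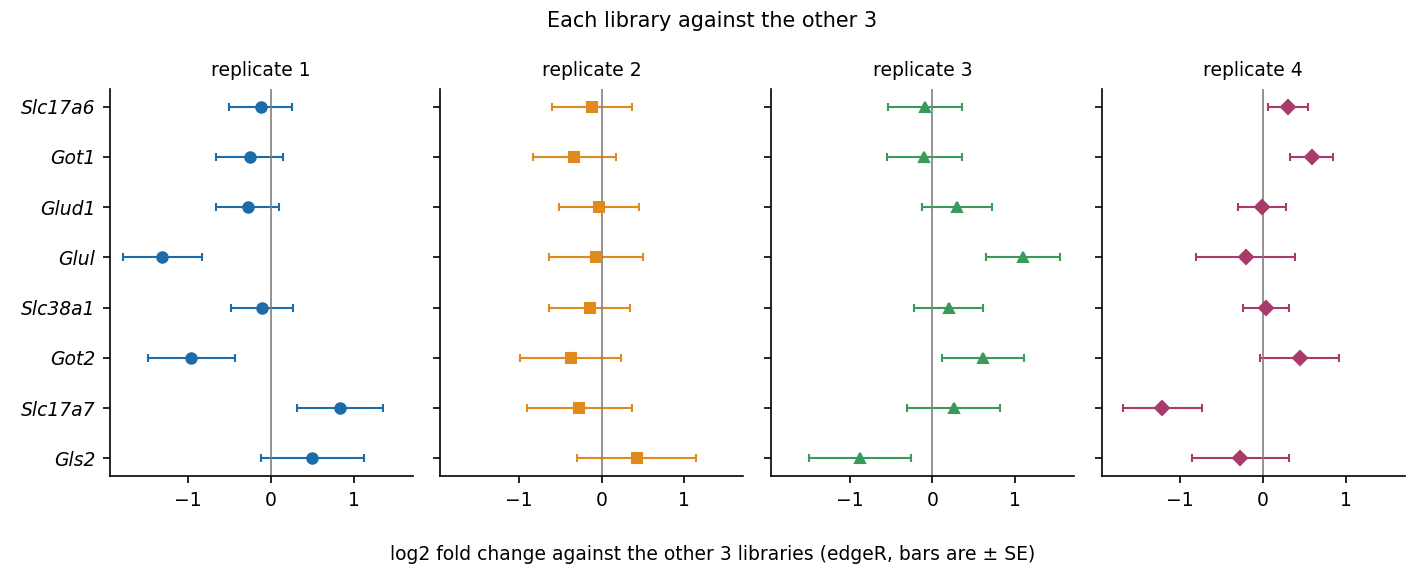
Log2 fold change of 8 genes in each library against the other 3 (edgeR, bars are SE, 1 panel per replicate). Slc17a8, with 0 to 29 counts, is left out. The largest shifts are those of Glul in replicates 1 and 3 and of Slc17a7 in replicate 4, and none passed the threshold.

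Of 51 other pathway genes 40 were tested, and edgeR called 0 in each comparison. At an unadjusted p under 0.05 it gave 1, 0, 5 and 7 of the 40 for replicates 1 to 4 (2.5, 0, 12.5 and 17.5%), beside 3.3, 0.517, 7.01 and 14.7% of all genes. In replicate 4, DESeq2 gave an adjusted p to 37 of the 51 and called 2, Aldh4a1 and Slc32a1. This stands beside 3.1% of all genes with an adjusted p there (423 of 13627). In replicates 1 to 3 DESeq2 called 0 of 37, 46 and 39. Aldh4a1, an enzyme of proline breakdown that yields glutamate, had 7.69, 1.07, 12.6 and 0.0910 CPM in replicates 1 to 4. The value in replicate 4 is 1 count, under the level of 3 counts there (0.273 CPM), and cannot be told from 0.

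The spread over libraries was also read as edgeR's biological coefficient of variation (BCV), which draws each gene toward genes of like abundance. Low values were found for 4 genes: Slc38a1 at 0.262, Slc17a6 at 0.263, Glud1 at 0.265 and Got1 at 0.275, against a median of 0.387 over 11227 genes. They lay at the 0.0980, 0.552, 1.13 and 6.08 percentiles. Abundant genes have lower values in general, the trend at the abundance of these 4 being 0.290 to 0.291. Got2 at 0.343, Glul at 0.344, Slc17a7 at 0.366 and Gls2 at 0.403 lay between the 36.3 and 53.6 percentiles. Slc17a8 was too low for this fit.

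Markers of granule cells were read beside Slc17a7. Of them, 8 other than Slc17a7, led per length by Cbln3, Zic1 and Neurod1, all reached 1 CPM in every library and summed to 599.6, 728, 1432 and 649 CPM in replicates 1 to 4. Their sum was highest in replicate 3, whereas Slc17a7 was highest in replicate 1. Of these, Gabra6, which encodes a subunit of a GABA receptor, had 45.1, 51.2, 106 and 38.1 CPM in replicates 1 to 4. The part of granule cell RNA in the level of Slc17a7 was not tested.

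**Figure D5:**
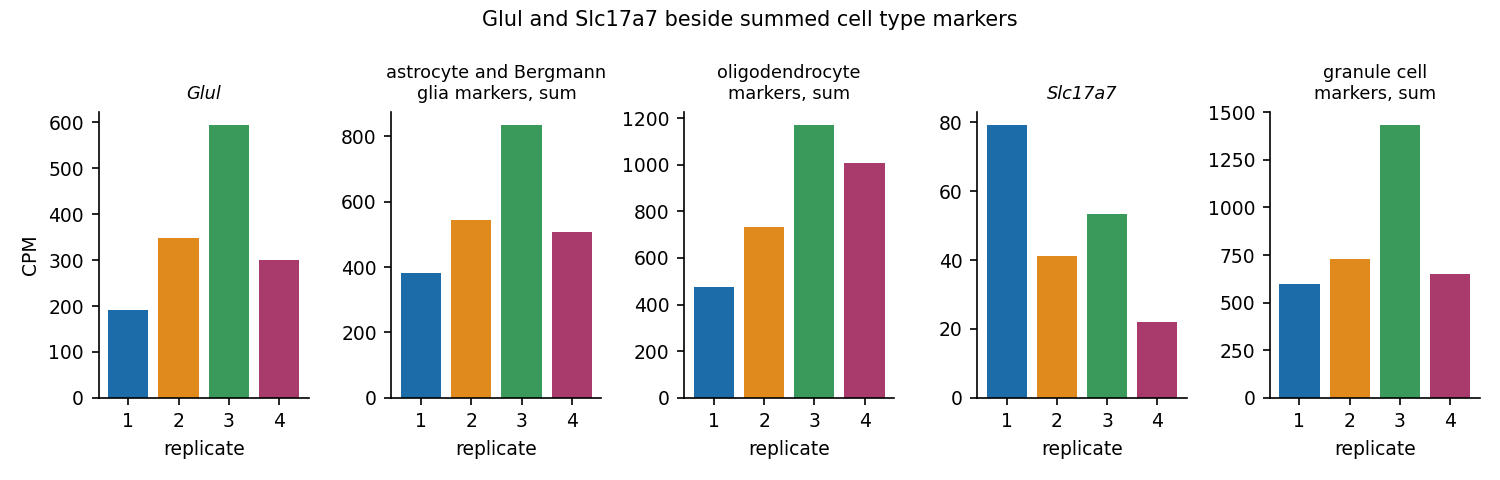
CPM of Glul and Slc17a7 and summed CPM of marker genes of astrocytes and Bergmann glia, oligodendrocytes and granule cells in the 4 libraries. Glul, both glial sums and the granule cell sum are lowest in replicate 1 and highest in replicate 3, the granule cell sum at 1432 CPM there. Slc17a7 is highest in replicate 1 at 79.2 CPM.

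The genes most alike to a member over the 4 libraries were taken as those with the smallest SD of the log2 ratio to it, among the 8832 genes that averaged 10 CPM or more and had a count in every library. For Slc17a6 they were Rnf214, Hivep2 and Eif3g, with SDs of 0.026, 0.030 and 0.031 against a median of 0.442 over all 8832 genes. For Slc17a7 they were A330050F15Rik, Mttp and Ndufb2 (SDs of 0.033, 0.058 and 0.061, median 0.803). For Glul they were 4930402H24Rik, Tmem2 and Med12 (SDs of 0.051, 0.069 and 0.079, median 0.851). Slc17a6, Rnf214, Hivep2 and Eif3g were lower in replicates 2 and 3, where the higher share of Rn45s lowers the CPM of every other gene. The part of Rn45s in these likenesses was not tested. Over 4 libraries many genes can share an order, and these names are a description only.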

How the data were processed

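Each of the 4 deposited files gave a library's raw counts, whole numbers by gene name. The counting program's 5 summary rows were kept out of totals and tests. A row named unknown held 0 counts. Per the submitters' processing notes, the tools were STAR 2.0.0e and HTSeq, on mm10. The sources used here do not give the annotation, the strand setting or the kit. Reads with no feature made up 14.1 to 21.1%, reads that were not unique 14.2 to 20.6% and ambiguous reads 2.04 to 2.94% of all counted reads. Depth of 9621762 to 10988373 counts makes 3 counts equal 0.273 to 0.312 CPM. Amplified reads without molecular identifiers are not independent molecules, so such floors cover counting error only.

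CPM used all named genes. Exon lengths from GENCODE release M21 were matched to 73.6% of names (23155 by symbol, 772 by an older symbol) and to 97.2% of the 11302 names with 10 counts in every library. Ratios to each member were fitted with limma 3.58.1 (pseudocount 0.5 counts, at least 10 counts over the 4 libraries, trended robust prior), and libraries were compared with edgeR 4.0.16 (TMM, filterByExpr) in R 4.3.3, with DESeq2 1.42.0 as an alternative. p-values were two-sided and adjusted by Benjamini-Hochberg over all genes of a fit, at a threshold of 0.05. Both fits were also run on simulated counts, drawn gene by gene without shared differences between libraries, and no p-value here rests on them. Members, lists and tests were chosen with earlier results of these data known. Named are the 9 genes, of each list the 3 highest per length and those without a count. Also named are the 3 genes most alike to Slc17a6, Slc17a7 and Glul. Others (Slc38a3, Gfap, Gja1, Aldh1l1, Gabra6, Aldh4a1, Itpr1, Pcp2, Ppp1r17, Calb1, Eomes, Lmx1a) were chosen after their values were seen. Some items that this rule names are not reported here. Alternatives changed pseudocount, length, filter, variance prior, scaling, tool and replicates.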

Additional observations from a re-analysis of the deposited data

How the results depend on the processing

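All 8 genes stayed below Slc17a6 under every pseudocount, length, filter, variance prior and left-out replicate tried, also with the other gene as the reference, an alternative added after the data had been seen. With 1 variance prior for all genes their adjusted p ranged from 1.7e-05 to 0.0367 (limma), the largest that of Got1. Neighbouring pairs depended most on length. By the longest transcript Glul and Slc38a1 no longer passed (0.53, limma adjusted p = 0.228), and with no division by length their order reversed (-0.85, adjusted p = 0.0570). With no division by length Got1 and Glud1 no longer passed (0.31, adjusted p = 0.0757), whereas Glud1 over Glul (0.74, adjusted p = 0.00556) and Slc17a7 over Gls2 (1.03, limma adjusted p = 0.0298) did. Without replicate 4 Got2 and Slc17a7 changed order (-0.13, adjusted p = 0.800), and leaving out each replicate in turn gave -0.13 to 0.76 for that pair. The number of passing pairs ran from 4 to 6. Levels moved with the length: by the longest transcript Slc38a1 stood at 81.8, Got2 at 20.02, Slc17a7 at 15.9 and Slc17a6 at 518 RPKM, and without Rn45s in the totals Slc17a6 stood at 2364 CPM. The share of Slc17a6 among the 3 transporters ranged from 97.0 to 98.1% over the settings. None of the 9 genes was called in 1 library against the others under any setting, while counts over all genes moved. For replicates 1 to 4 edgeR called 3, 0, 0 and 7 genes, DESeq2 25, 5, 88 and 423, and edgeR with no filter 32, 0, 86 and 416. Leaving out 1 of the other libraries gave 7 to 31, 0 to 2, 1 to 33 and 74 to 125 calls. The cause was not tested. No paired analysis was possible because there is 1 group. At this depth a level under 0.273 CPM cannot be told from 0 in any library, which limits what can be said of Slc17a8.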
